A study of Mus musculus with 24 samples.

Results

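The comparison described here asked whether the expression differences carried by mouse clones of the 20th generation were the same in brain and liver or were limited to 1 tissue. Serial recloning makes each generation from a somatic cell of the last. The clones, called G20, were derived from cumulus cells, the cells that surround the oocyte, and each was set against normal controls, called NC, that were produced by intracytoplasmic sperm injection (ICSI), in which a sperm is injected into the egg, so the controls too came from eggs handled in the laboratory. All were neonatal females of the strain cross (C57BL/6 x DBA2) x 129/Sv. The 16 arrays used, of 24 in the series, were 4 of brain NC, 4 of brain G20, 4 of liver NC and 4 of liver G20. The other 8 arrays, of first generation clones, did not enter the fit. Each array held RNA of whole tissue, so fewer cells of a type and less RNA per cell cannot be told apart. The labels give separate controls by number, but whether the G20 arrays of the 2 tissues come from the same animals, or the clones from 1 donor line, is not stated by the labels, and p-values measure the spread between these samples.

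Cloning by nuclear transfer asks the egg to return an adult nucleus to an embryonic state. Genomic imprints, the methylation marks by which a gene is read from the maternal or the paternal copy alone, are laid down in the germ line and are not rewritten by the egg, so imprinted genes are a usual place to look for errors that every tissue of a clone would carry. In liver, insulin, growth hormone and the time of feeding set the genes of fat synthesis and the output of Igf1, programmes that brain does not share in the same form.

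For each gene the G20 effect is the mean log2 signal of the 4 G20 arrays minus that of the 4 NC arrays, with each array scaled to its 75th percentile. The difference between tissues is the brain effect minus the liver effect. It was fitted with limma over the 15033 of 28599 gene names whose probe passed the scanner's test of being well above background on every array of 1 or both groups, in brain and again in liver. Calls were made where the p adjusted over all these genes (Benjamini-Hochberg) was under 0.05, and values after ± are standard errors from the same fit, with n = 4 arrays a group. Neuronal Snap25 lay between 3.45 and 3.82 (log2 level) on the brain arrays and was not above background on any liver array, and albumin (Alb) lay between 8.65 and 9.04 in liver and at or below -3.51 in brain. Between 57.7% and 70.6% of probes were well above background on each array. The 75th percentile of the signal lay at 788 to 909 (NC) and 701 to 843 (G20) in brain and at 263 to 324 (NC) and 420 to 536 (G20) in liver. Each group had a slide of its own: the slide cannot be told apart from the group.

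The liver changed in more genes than the brain, and most liver changes could not be placed as shared or liver-limited. In brain 189 genes were called (1.26% of those tested), 121 higher (0.805%) and 68 lower (0.452%) in G20. In liver 2071 were called (13.8%), 1234 higher (8.21%) and 837 lower (5.57%). The difference between the tissues was called for 589 genes (3.92%), of which 300 (2%) had the higher effect in brain and 289 (1.92%) the lower. The mean of both effects was called for 1548 genes (10.3%), 992 higher (6.6%) and 556 lower (3.7%). The 3 splits depend on the scaling: with each array scaled to its median, the brain split was 95 higher and 86 lower, the liver split 723 and 1270, and the difference split 332 and 190. In the reported setting the liver split also varied with brightness. It was 404 higher and 154 lower among the dimmest 3007 genes and 166 and 179 among the brightest 3007. Treating arrays of the same number as 1 animal in a random block gave 894 genes with a called difference. After normexp background correction, an alternative that moved dim and bright genes apart in liver, the 3 counts were 17 in brain, 9122 in liver and 7493 for the difference. Over all genes the median effect was 0.02 in brain and 0.02 in liver, 55.1% of genes had the same sign in both, and the effects correlated at r = 0.197, a description across genes, which are not independent.

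Genes called in both tissues numbered 78, which is 41.3% of the brain calls and 3.77% of the liver calls, and 70 of them moved the same way. Of these, 58 (0.386% of genes tested) showed no called difference between tissues and are termed shared, 36 higher and 22 lower. For 37 of the 58 the 95% interval of the difference lay within 1.5-fold either way, and for the other 21 it reached further. Another 12 (0.0798%) moved the same way by unequal amounts and 8 (0.0532%) moved in opposite directions. Brain-limited genes, called in brain and in the difference but not in liver, numbered 39 (0.259%), and liver-limited genes, the reverse, 474 (3.15%). A further 1591 genes (10.6%) were called in 1 tissue with neither the other tissue nor the difference called. They were left unplaced: 1519 were called in liver, 72 in brain, and 1173 had the same sign in both tissues.

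**Figure D1:**
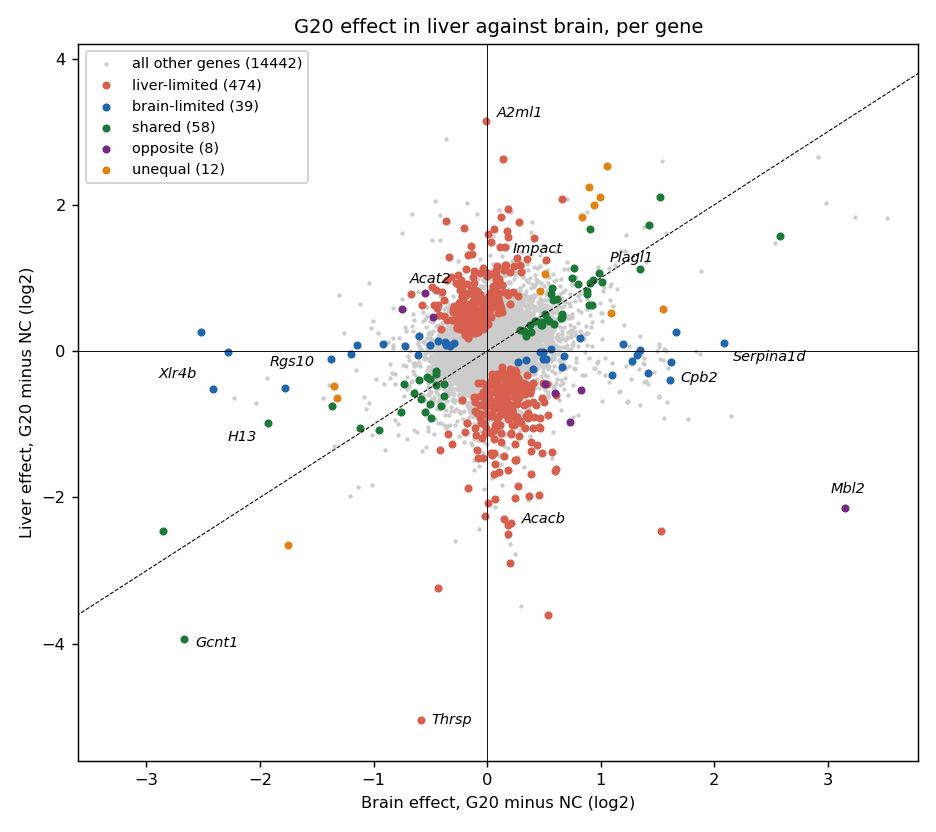
The G20 effect in brain (x axis, log2) against that in liver (y axis, log2) for the 15033 genes measured in both tissues, coloured by class, with a dashed line where the effects are equal. The 58 shared genes lie along the dashed line, the 474 liver-limited genes along the vertical axis and the 39 brain-limited genes along the horizontal axis; the classes were set from these same effects.

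The shared genes that rose included paternally expressed imprinted genes, by 0.77 to 1.02 in brain and 0.63 to 1.14 in liver on the log2 scale. Of the 24 members measured in both, 5 rose and 0 fell in brain, 7 rose and 2 fell in liver, and 4 were shared: Plagl1, Zrsr1, Impact and Mcts2. The list's median effect was 0.20 in brain and 0.11 in liver, against 0.02 and 0.02 over all genes. Of 25 maternally expressed genes, 0 rose and 2 fell in brain and 3 rose and 2 fell in liver, with medians of 0.02 and 0.06. Over all genes tested, 0.805% rose and 0.452% fell in brain, and 8.21% rose and 5.57% fell in liver. The maternal counts in liver were not far from those shares. After normexp background correction the paternal list gave 2 rises and 0 falls in brain and 8 rises and 7 falls in liver, and the maternal list 13 rises and 4 falls in liver. The level of the 32 paternally expressed genes on the array was also summed (linear, relative to each array's 75th percentile). In brain the sum was 179 to 184 in NC and 212 to 256 in G20, and in liver 339 to 392 and 410 to 448. Each G20 array lay above every NC array of its tissue. Such a sum is weighted to its brightest members. In liver these include Dlk1, which rose by 1.10 there and was not placed as shared. The sum therefore does not show that the list rose as a whole.

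Plagl1 encodes a zinc finger transcription factor. Its levels in brain were 3.66, 3.47, 3.52 and 3.68 in NC and 4.51, 4.61, 4.50 and 4.64 in G20, and in liver 3.66, 3.97, 3.90 and 4.25 in NC and 4.85, 5.01, 4.93 and 5.26 in G20. The groups did not overlap in either tissue, which was a condition for picking shared genes by size. The effect was 0.98 ± 0.11 in brain (limma, Benjamini-Hochberg adjusted p = 0.000202) and 1.06 ± 0.11 in liver (adjusted p = 4.34e-05), and the difference was -0.08, with a 95% interval from -0.42 to 0.26. Zrsr1, related to the small subunit of the splicing factor U2AF, read 1.35, 1.37, 1.5 and 1.32 in brain NC against 2.30, 2.54, 2.40 and 2.37 in brain G20. In liver it read 1.20, 1.03, 1.02 and 1.16 in NC and 2.06, 2.03, 2.04 and 2.06 in G20. Its difference between tissues, 0.07, had an interval from -0.14 to 0.28, the narrowest of the 4. Impact, a regulator of the amino acid sensing kinase Gcn2, rose by 0.77 ± 0.13 in brain and 1.14 ± 0.13 in liver (adjusted p = 0.00841 and 7.23e-05), and Mcts2, a retrogene copy of a translation factor gene, by 0.90 ± 0.10 and 0.63 ± 0.10 (adjusted p = 0.000125 and 0.00089). Their intervals of the difference ran from -0.76 to 0.01 and from -0.03 to 0.57, and so were wider than that of Zrsr1.

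The sequences before the start sites of Plagl1, Zrsr1 and Mcts2, which rose in both tissues, and of Nap1l5, which was called in brain, are shown because methylation of CG pairs at such promoters is the textbook mark of imprinting; methylation was not measured here. They are RefSeq sequences of GRCm38.p6, the 250 bases before each start, 5′ to 3′ on the gene's strand, with each CG in capitals. Plagl1 is read from chr10:13090582-13090831 on the plus strand, Zrsr1 from chr11:22971755-22972004 (plus), Mcts2 from chr2:152686898-152687147 (plus) and Nap1l5 from chr6:58907127-58907376 (minus).
Plagl1: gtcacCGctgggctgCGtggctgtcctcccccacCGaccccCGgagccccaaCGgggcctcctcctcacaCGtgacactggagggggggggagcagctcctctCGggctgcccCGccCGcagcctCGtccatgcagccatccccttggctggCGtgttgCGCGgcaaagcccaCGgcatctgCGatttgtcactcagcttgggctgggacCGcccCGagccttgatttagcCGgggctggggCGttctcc
Zrsr1: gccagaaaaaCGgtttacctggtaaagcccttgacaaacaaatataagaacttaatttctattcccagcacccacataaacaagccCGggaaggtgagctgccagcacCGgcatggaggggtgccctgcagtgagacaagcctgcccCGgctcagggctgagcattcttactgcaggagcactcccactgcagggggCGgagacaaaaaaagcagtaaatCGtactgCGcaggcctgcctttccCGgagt
Mcts2: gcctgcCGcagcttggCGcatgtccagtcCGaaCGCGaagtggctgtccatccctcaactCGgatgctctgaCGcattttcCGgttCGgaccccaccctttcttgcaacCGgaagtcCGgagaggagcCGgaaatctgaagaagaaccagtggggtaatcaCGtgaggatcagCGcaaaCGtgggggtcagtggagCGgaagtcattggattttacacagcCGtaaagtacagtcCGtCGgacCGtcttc
Nap1l5: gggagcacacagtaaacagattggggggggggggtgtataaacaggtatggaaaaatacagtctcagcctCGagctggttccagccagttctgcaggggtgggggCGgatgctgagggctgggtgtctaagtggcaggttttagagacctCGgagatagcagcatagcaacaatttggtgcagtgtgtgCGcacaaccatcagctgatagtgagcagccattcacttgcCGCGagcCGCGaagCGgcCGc
The Plagl1 window holds 19 CG, the Zrsr1 window 8, the Mcts2 window 20 and the Nap1l5 window 10. Of 32851 mouse promoters of this length, 19.7%, 43%, 17.9% and 37.8% hold at least as many, and the median holds 6. The CG pair was chosen after the sequences were seen, and the count is a description of the letters.

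Several paternally expressed genes of this list lie inside a larger host gene, and the array holds probes on both sides of the nested gene, so the effect could be read along the host. The positions below are those of the array's design on mm8, and these probes were fitted with all 21744 probes measured in both tissues, of which 231 (1.06%) were called in brain, 2803 (12.9%) in liver and 728 (3.35%) in the difference. The hosts were examined probe by probe after the gene values were seen.

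H13, which encodes the signal peptide peptidase, runs along the plus strand of chromosome 2 with Mcts2 (chr2:152379209-152379268) inside it. The H13 probe before Mcts2, at chr2:152377929-152377988, rose. In brain it read -0.15, -0.51, -0.78 and -0.23 in NC and 1.01, 0.82, 0.38 and 0.46 in G20, an effect of 1.08 ± 0.21, and in liver the effect was 0.92 ± 0.21 (limma, adjusted p = 0.0201 and 0.00969; after normexp the liver effect was -0.24). The H13 probe after Mcts2, at chr2:152391653-152396065, fell. In brain it read -0.95, -0.74, -0.87 and -0.75 in NC and -3.18, -2.89, -3.07 and -3.04 in G20, and in liver 0.41, 0.42, 0.31 and 0.71 in NC and -0.50, -0.39, 0.01 and -0.47 in G20. Groups did not overlap at either probe in either tissue where values are given. The effects after Mcts2 were -2.22 ± 0.11 in brain and -0.80 ± 0.11 in liver (adjusted p = 7.97e-08 and 0.000497), and they differed by -1.42 ± 0.16 (adjusted p = 0.000518). The last H13 probe, at chr2:152398054-152398113, fell by 1.93 in brain and by 0.99 in liver (adjusted p = 0.000194 and 0.0102), with no called difference (adjusted p = 0.114). Thus in both tissues the H13 probe before the nested gene, and Mcts2 itself, were higher in G20 and the 2 probes after it lower. The brain call of the first probe was lost without brain NC replicate 2, brain G20 replicate 1 or brain G20 replicate 2 (lowest effect over all settings 0.96).

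Blcap, on the minus strand of chromosome 2, carries Nnat (chr2:157253683-157253742), the gene of the membrane proteolipid neuronatin. The Blcap probe before Nnat, at chr2:157255796-157255855, rose in both tissues, by 1.13 ± 0.19 in brain and 1.18 ± 0.19 in liver (limma, adjusted p = 0.0091 and 0.00138). It was above background on 1 of 4 liver NC arrays, and after normexp its liver effect was -1.28. The last Blcap probe, at chr2:157247840-157247899, read 4.99, 4.95, 5.02 and 5.06 in brain NC and 3.83, 3.97, 3.70 and 3.71 in brain G20, and 3.04, 2.85, 2.74 and 2.94 in liver NC and 3.16, 2.90, 2.66 and 2.69 in liver G20. The brain groups lay apart and the liver groups overlapped. Its effect was -1.20 ± 0.11 in brain and -0.04 in liver (adjusted p = 1.4e-05 and 0.851), and the difference, -1.16 ± 0.15, was called (adjusted p = 0.00122). The probe between, at chr2:157249223-157249282, gave -1.43 ± 0.14 in brain and -0.03 in liver. Nnat itself read 4.98 to 5.06 in brain NC and 5.21 to 5.40 in brain G20, groups that did not overlap, with an effect of 0.31 that was not called (adjusted p = 0.563). It rose by 1.08 in liver (adjusted p = 0.00954), where it read -3.27 to -2.21 in NC and -2.28 to -0.86 in G20, ranges that overlap (after normexp -0.22).

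Herc3, a ubiquitin ligase gene on the plus strand of chromosome 6, showed the same order of signs only in part. Its first probe, at chr6:58833258-58833317, read -2.08, -2.09, -2.08 and -1.97 in brain NC and -1.08, -0.44, -1.50 and -0.90 in brain G20, an effect of 1.07 ± 0.15 (limma, adjusted p = 0.00144). In liver it read -2.78, -2.74, -3.00 and -2.89 in NC and -2.79, -2.85, -2.89 and -2.80 in G20, an effect of 0.02, and the difference was called (1.06 ± 0.21, adjusted p = 0.0163). This first probe was thus higher in brain on every G20 array and overlapped in liver. The Herc3 probe at chr6:58849758-58849817, past Nap1l5, gave -0.10 in brain and 0.22 in liver, neither called. Commd1, a copper transport and NF-kB regulator gene on the minus strand of chromosome 11, has Zrsr1 (chr11:22874611-22874670) on the other strand between its first 2 probes. Both fell in brain: the effect was -0.63 ± 0.09 at chr11:22882184-22882243 and -0.59 at chr11:22856615-22856674 (adjusted p = 0.00103 and 0.000224). In liver the effects were -0.05 and -0.13, and both differences were called (adjusted p = 0.0185 and 0.022). The first was lost after normexp. The second was lost without brain NC replicate 4, with median scaling, and with normexp and quantile normalization. After normexp neither brain fall was called (limma, adjusted p = 0.515 and 0.0671). The third Commd1 probe, at chr11:22799933-22799992, gave -0.38 in brain, not called (adjusted p = 0.0875), and 0.02 in liver. Zrsr1 thus rose in both tissues, while the 2 Commd1 probes around it fell in brain.

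**Figure D2:**
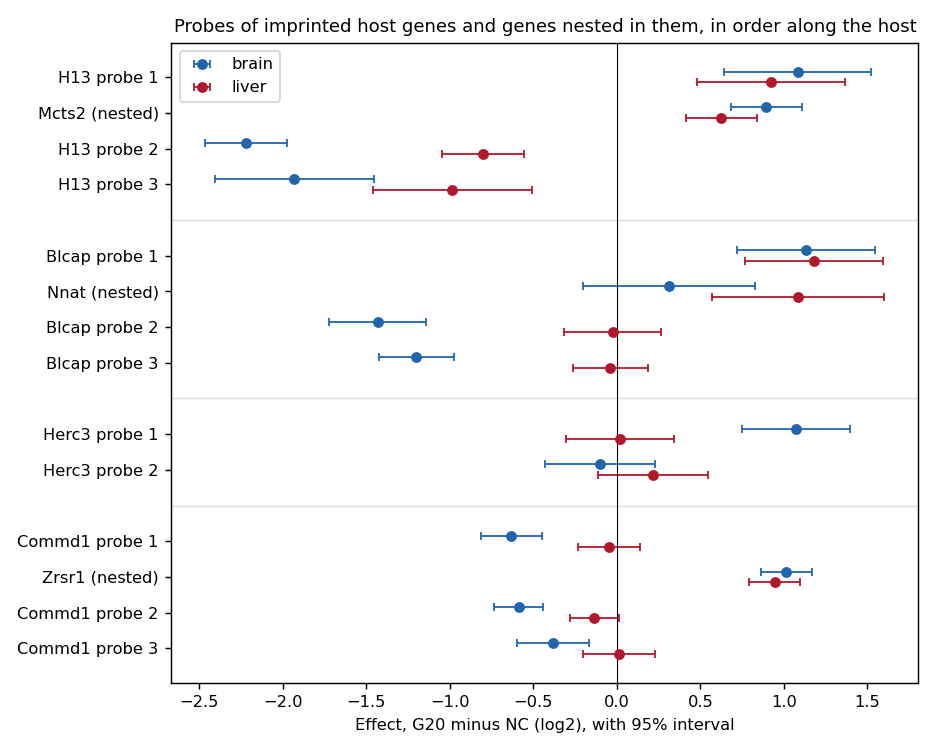
G20 effects (log2, with 95% intervals) at single probes of the host genes H13, Blcap, Herc3 and Commd1, ordered along each host, with the genes nested in them marked, for brain and liver. At H13 the probe before Mcts2 is above 0 and those after it below 0 in both tissues (1.08 and -2.22 in brain). At Blcap the probes after Nnat are well below 0 in brain and near 0 in liver (-1.20 against -0.04 at the last probe).

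Beyond imprinted genes, the shared group held genes of unrelated kinds. Snord33, a small nucleolar RNA that guides methylation of ribosomal RNA, read -1.45, -1.91, -1.79 and -1.68 in brain NC and -2.80, -2.69, -2.89 and -2.93 in brain G20. In liver it read -1.31, -1.46, -1.33 and -1.34 in NC and -2.11, -2.48, -2.52 and -2.54 in G20. It fell by 1.12 in brain and 1.05 in liver (limma, adjusted p = 3.16e-05 in each), with an interval of the difference from -0.39 to 0.26. Gcnt1, a glycosyltransferase that branches mucin-type sugars, read -3.64 to -3.33 in brain NC and -6.81 to -5.43 in brain G20, and 1.74 to 2.75 in liver NC and -1.76 to -1.31 in liver G20. It fell by 2.67 and 3.94 (adjusted p = 9.12e-05 and 1.62e-06), but was above background on 2 of 4 brain G20 arrays, and its other probes fell by 0.99 and 1.07 in liver. Hps1, of lysosome-related organelles, fell by 1.36 and 0.75, with -0.31 and -0.22 at its other probe. Dapk2, a death-associated protein kinase, fell by 0.95 and 1.08, and Dleu2, a long non-coding RNA that hosts microRNAs, by 0.76 and 0.83. After normexp the brain effect of Dapk2 was 0.08. Fam160b1 rose by 1.35 and 1.12 at 1 probe, while its other 3 probes gave -0.38 to 0.11 in brain and -0.18 to 0.59 in liver. Gm5458, of a family of near-identical genes on chromosome 14, rose in brain by 0.90 (adjusted p = 0.0462) and was at least 2.96-fold higher in liver, where the NC level was not well above background. Its brain call was lost when any 1 array was left out other than liver G20 replicates 1 and 2, and its liver effect after normexp was -1.35. Such bounds set the mean of the brighter group against the lowest signal well above background on each dim array.

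Brain-limited genes that fell included a signalling regulator, a member of an X-linked family and a transporter. Rgs10, a regulator of G protein signalling, was the brain-limited gene with the smallest adjusted p in the difference. It read 1.99, 2.02, 1.99 and 1.91 in brain NC and 0.33, 0.74, 0.72 and 0.62 in G20, and in liver 2.94, 2.70, 2.89 and 2.85 in NC and 2.64, 2.77, 2.80 and 2.77 in G20. The groups lay apart in brain, a condition for picking brain-limited genes by size, and overlapped in liver. Its effect was -1.38 ± 0.09 in brain (limma, adjusted p = 9.19e-07), -0.10 in liver (95% interval -0.29 to 0.08), and the difference was -1.27 ± 0.12 (adjusted p = 0.000125). Xlr4b, of an X-linked family with imprinted members, read -0.02 to 0.46 in brain NC and -2.86 to -1.39 in G20 (effect -2.42 ± 0.27, adjusted p = 0.000161). Its liver effect of -0.52 was not called, with an interval from -1.10 to 0.06. The transporter gene Slc6a16 fell by 1.78 and the metalloproteinase gene Mmp23 by 0.92 in brain, and the antiviral gene Shfl rose by 0.68 (its difference was lost without brain NC replicate 2 or liver G20 replicate 2). After normexp the difference was 0.97 for Slc6a16 and 0.62 for Mmp23, whose brain effect was then 0.04.

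Brain-limited genes that rose included several best known from liver. Serpina1d, an alpha-1 antitrypsin, read -5.04, -3.51, -5.16 and -5.11 in brain NC and -2.77, -2.33, -2.90 and -2.47 in G20, and 8.22 to 8.67 in all liver arrays. Its brain effect was 2.09 ± 0.28 and its difference 1.98 ± 0.39 (limma, adjusted p = 0.000843 and 0.0132). Cpb2, which restrains clot lysis, rose by 1.62, Creb3l3, a liver transcription factor, by 1.32 and Agmat, agmatinase, by 1.28 in brain. The Agmat difference was lost without any 1 of 13 of the 16 arrays, all but brain NC replicates 1 and 4 and brain G20 replicate 3, and its brain call without brain NC replicate 2 or 3 or brain G20 replicate 1, 2 or 4. The Creb3l3 difference was lost without brain NC replicate 2, brain G20 replicate 1, liver NC replicate 1 or liver G20 replicate 4. The summed level of hepatocyte markers was 9.88 to 10.5 on the brain NC arrays and 11.7, 8.0, 10.1 and 22.4 on brain G20 replicates 1 to 4, against 6456 to 7974 in liver. In brain, Apoa1 was above background on 0 of 8 arrays, and Apoa2 on 1 NC and 0 G20 arrays. Fgb was above background on 3 of 4 NC and 4 of 4 G20 arrays, and Alb and Afp on 4 of 4 in each group. Alb read -4.69 to -4.23 in brain NC and -4.42 to -3.51 in brain G20, and Afp -4.12 to -3.84 and -4.01 to -2.82. Ttr, transthyretin, reached lower in G20: 0.46 to 0.98 in brain NC and -4.07 to 0.81 in brain G20. The summed choroid plexus marker level was 9.06 to 9.94 on brain NC arrays. On brain G20 replicates 1 to 4 it was 8.12, 4.44, 10.1 and 8.88. Of the 16 hepatocyte markers measured in both tissues 2 rose and 1 fell in brain, where 0.805% and 0.452% of all genes did. The red cell markers Rhd and Slc4a1 rose in brain by 1.37 and 1.51, but their differences between tissues were not called (adjusted p = 0.0588 and 0.0912). The summed red cell marker level was 88.6 to 186 on brain NC and 209 to 228 on brain G20 arrays. The part of blood, choroid plexus or hepatocyte RNA in these brain changes was not tested.

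**Figure D3:**
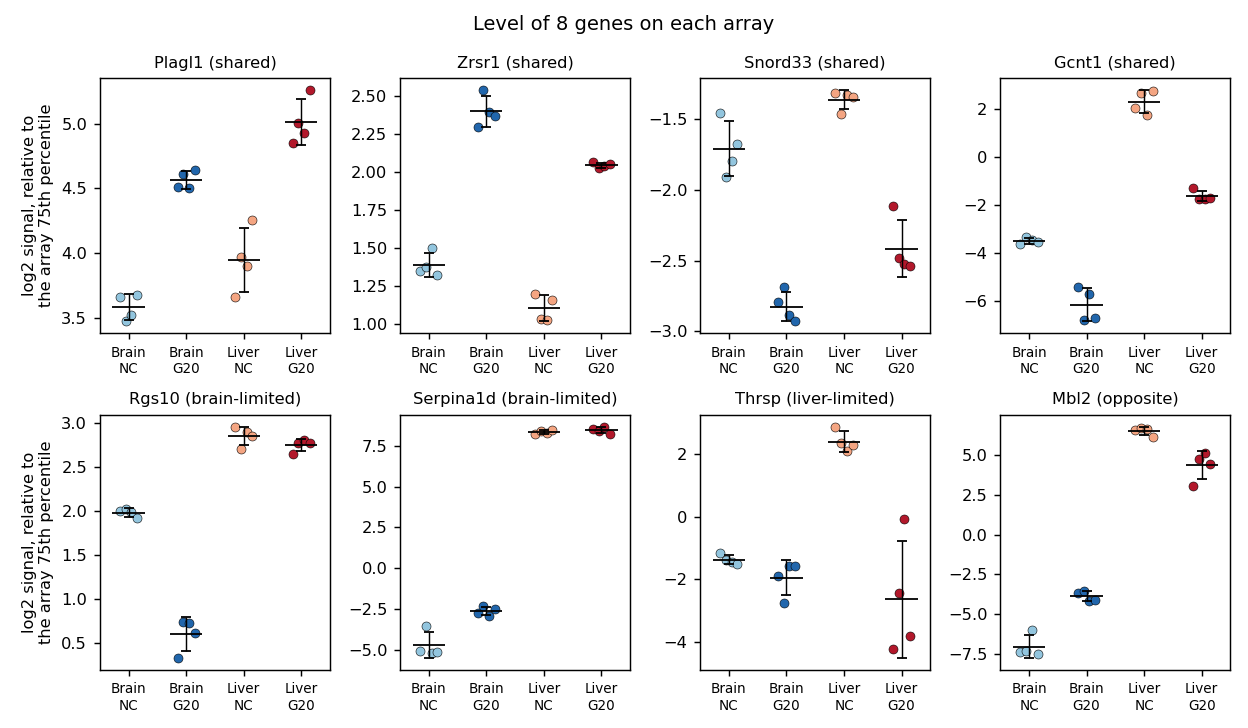
The log2 level of 8 genes on each of the 16 arrays, by group, with the group mean and SD over 4 arrays. Plagl1, Zrsr1, Snord33 and Gcnt1 move the same way in both tissues, Rgs10 and Serpina1d move in brain only within this fit, Thrsp in liver, and Mbl2 in opposite directions (3.16 in brain, -2.14 in liver).

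The liver-limited genes numbered 239 higher and 235 lower, of which 186 and 223 were above background on all 16 arrays. The even split thus holds only with genes not detected on every array. Of the 239 higher, 16 had no liver NC array above background, and of the 235 lower, 2 had no liver G20 array above it. A2ml1, a protease inhibitor related to alpha-2-macroglobulin, read -2.38, -1.72, -1.76 and -2.90 in liver NC and 1.14, 0.81, 0.59 and 1.29 in liver G20. It rose by 3.15 ± 0.26, with -0.01 in brain, and differed by -3.16 ± 0.36 (limma, adjusted p = 0.00044). Akr1c19, an aldo-keto reductase, read 0.81 to 0.99 in liver NC and 2.52 to 2.93 in liver G20, a rise of 1.83 ± 0.10 against 0.12 in brain, and its difference had an adjusted p of 2.65e-05. Its other probe, above background on all 16 arrays, gave 0.28 in liver and 0.17 in brain. Derl3, of the endoplasmic reticulum's degradation path, rose by 1.44 in liver and stood at -0.14 in brain. Ntsr1, the neurotensin receptor, was at least 3.44-fold higher in liver, where NC was not well above background. After normexp the liver effects of Derl3 and Ntsr1 were -1.03 and -1.27, so their direction depends on the background correction. Tnnc1, a muscle troponin, rose by 2.62, with summed muscle markers of 5.50 to 19.7 on liver NC and 8.25 to 27.6 on liver G20 arrays. The part of muscle in it was not tested, and its difference was lost without any 1 of 13 of the 16 arrays, all but liver NC replicate 4 and liver G20 replicates 1 and 2.

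Most of the fat synthesis genes measured fell in liver. Of 23 lipogenesis genes measured in both tissues, 16 fell and 0 rose in liver, 0 were called in brain (limma; 1 at an unadjusted p under 0.05), and the difference was called for 6 (17 unadjusted). Over all 15033 genes, 5.57% fell in liver, 1.26% were called in brain and 3.92% in the difference. Unadjusted, 2412 of them passed in brain and 3043 in the difference. A count of 0 called in brain is near the share over all genes. The list's median was -0.97 in liver and 0.01 in brain, and 0.93 for the difference, against -0.01 over all genes. Leaving out 1 array gave 13 to 18 members called lower in liver and 4 to 16 called differences. The highest counts, 18 and 16, came without liver G20 replicate 3, and without liver NC replicate 4 the difference was called for 10. After normexp background correction 11 fell and 1 rose in liver, with a list median of -0.60. The difference was then called with brain higher for 9 members and with liver higher for 1. Thrsp, a nuclear protein that promotes fatty acid synthesis, read 2.88, 2.35, 2.09 and 2.30 in liver NC and -4.22, -2.45, -0.06 and -3.82 in liver G20, and in brain -1.15, -1.38, -1.43 and -1.50 in NC and -1.88, -2.76, -1.57 and -1.58 in G20. The liver groups lay apart, with G20 replicate 3 nearest to NC. It fell by 5.04 in liver (limma, adjusted p = 0.000159) against -0.58 in brain (interval -1.92 to 0.76), and differed by 4.46 ± 0.89 (adjusted p = 0.0135). Acacb, the acetyl-CoA carboxylase of mitochondria, fell by 2.35 in liver and gave 0.21 in brain. Fasn, fatty acid synthase, read 6.22, 6.21, 6.39 and 6.42 in liver NC and 4.37 and 5.33 on the 2 liver G20 arrays with a value. Its values on brain NC replicate 1 and liver G20 replicates 2 and 3 were removed as outlier spots, and the liver effect was -1.46. Me1, malic enzyme, which supplies NADPH, fell by 1.48 against 0.25 in brain.

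Scd1, the desaturase that makes monounsaturated fat, was among the members left unplaced. It read 4.12, 4.09, 4.32 and 3.11 in liver NC and -1.06, 1.26, 3.27 and 1.06 in liver G20, so that G20 replicate 3 exceeded NC replicate 4. It fell by 2.78 in liver (limma, adjusted p = 0.00651), gave 0.24 in brain, and the difference of 3.02 missed the threshold (adjusted p = 0.0555). Srebf1, the transcription factor of this programme, read 6.07 to 6.16 in liver NC and 5.11, 5.72, 6.21 and 5.23 in liver G20 and was not called (adjusted p = 0.0527). The promoters of Thrsp and Fasn, members with called differences, are printed below with CCAAT, or ATTGG where it lies on the other strand, in capitals. This is the box read by the factor NF-Y, which works beside Srebf1 at many fat and sterol genes. They are the 250 bases before the RefSeq start on GRCm38.p6, from chr7:97417551-97417800 (minus strand) and chr11:120824548-120824797 (minus strand), and the motifs were chosen after the sequences were seen.
Thrsp: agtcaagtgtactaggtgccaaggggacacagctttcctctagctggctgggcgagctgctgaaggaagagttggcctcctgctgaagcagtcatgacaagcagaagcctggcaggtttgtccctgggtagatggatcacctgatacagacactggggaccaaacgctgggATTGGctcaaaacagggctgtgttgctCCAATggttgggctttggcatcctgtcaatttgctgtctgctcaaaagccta
Fasn: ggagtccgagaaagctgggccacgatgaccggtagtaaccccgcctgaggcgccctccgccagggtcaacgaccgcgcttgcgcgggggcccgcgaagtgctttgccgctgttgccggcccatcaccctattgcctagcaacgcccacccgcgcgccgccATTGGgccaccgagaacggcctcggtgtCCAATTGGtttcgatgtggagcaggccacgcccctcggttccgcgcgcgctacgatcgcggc
Thrsp holds 2 and Fasn 3 such boxes, and neither holds CACGTG, the palindrome read by E-box factors. Of the 18 lipogenesis genes with a promoter entry, 9 hold CCAAT on either strand and 1 holds CACGTG, where 33.8% and 6.02% of all 32851 promoters do.

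The neighbouring sterol and growth hormone lists held fewer members that fell. Over all genes, 8.21% rose and 5.57% fell in liver, 1.26% were called in brain and 3.92% in the difference. Of 25 cholesterol synthesis genes, 9 fell and 1 rose in liver, with a list median of -0.34 there and 0.02 in brain. Fdps fell by 1.06 and Sc5d by 1.05 in liver. Without liver G20 replicate 3 the count that fell was 15, without liver NC replicate 4 it was 10, without liver NC replicate 1 or 2 or liver G20 replicate 4 it was 4, and without liver NC replicate 3 or liver G20 replicate 2 it was 5. Of 21 genes of the growth hormone and Igf axis, 6 fell and 0 rose in liver, 0 were called in brain (limma; 4 at an unadjusted p under 0.05), and 5 had a called difference. Its median was 0.0033 in liver and 0.14 in brain. Igf1, the growth factor that liver secretes under growth hormone, read 2.27, 2.49, 2.27 and 2.08 in liver NC and 0.79, 1.01, 1.44 and 1.04 in liver G20, groups that lay apart. In brain it read -2.93, -2.54, -2.37 and -2.65 in NC and -2.34, -2.49, -2.70 and -2.73 in G20, which overlap. It fell by 1.21 in liver (limma, adjusted p = 0.000122), gave 0.06 in brain (interval -0.25 to 0.37) and differed by 1.26 ± 0.21 (adjusted p = 0.00403). The growth hormone receptor Ghr fell by 0.41, the binding protein gene Igfbp5 by 1.01 and the signalling inhibitor Socs2 by 1.05 in liver, with brain effects of 0.19, 0.22 and -0.11. The other Ghr probes gave smaller liver effects, from -0.25 to -0.05, and the other Socs2 probe gave -0.60. The Socs2 difference was lost when any 1 of 10 arrays was left out. After normexp background correction the cholesterol list gave 6 rises and 0 falls in liver and the growth hormone list 8 rises and 3 falls.

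Genes that moved in opposite directions were led by Mbl2, the mannose-binding lectin that liver secretes. It read -7.33, -7.30, -5.95 and -7.49 in brain NC, where it was above background on 1 array, and -3.65, -3.53, -4.18 and -4.09 in brain G20, and 6.54, 6.68, 6.61 and 6.09 in liver NC and 3.06, 4.75, 5.10 and 4.44 in liver G20. It rose by 3.16 in brain and fell by 2.14 in liver, a difference of 5.30 ± 0.55 (limma, adjusted p = 0.000189). Brain G20 replicate 4, the array with the highest hepatocyte marker sum, was lower for Mbl2 than replicates 1 and 2 and higher than replicate 3. The part of hepatocyte RNA in the brain rise of Mbl2 was not tested. Lama3, a laminin chain, rose by 0.73 and fell by 0.97, with no overlap between groups in either tissue, which was a condition for picking it. Cd300lg, a receptor of endothelial cells, rose by 0.83 in brain, above background on 2 of 4 NC arrays, and fell by 0.53 in liver, lost without liver G20 replicate 3. Acat2, of sterol and ketone metabolism, fell by 0.55 in brain and rose by 0.79 in liver. Its brain call had an adjusted p of 0.0419 and was lost when any 1 of 10 arrays was left out.

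Genes measured in 1 tissue only cannot be placed as shared or limited, and were tested within their tissue, with p-values adjusted over the 18720 genes measured in brain (151 called, 0.807%) or the 16698 in liver (1215 called, 7.28%). Of 3669 measured in brain only, 48 were called (1.31%), 33 higher and 15 lower, and of 1648 measured in liver only, 240 (14.6%), 134 higher and 106 lower. In brain Nap1l5, the nested gene of Herc3, read 2.57, 2.76, 2.72 and 2.54 in NC and 3.53, 3.95, 3.15 and 3.44 in G20, an effect of 0.87 (limma, adjusted p = 0.0416), so it rose beside the Herc3 probe before it. That call was lost without brain NC replicate 1, 2, 3 or 4, or without brain G20 replicate 1 or 4. Avp, vasopressin, read 0.00 to 0.29 in NC and -1.02 to -0.61 in G20, a fall of 0.93 (adjusted p = 0.00486). In liver Serpina6, which carries corticosteroids in blood, read -0.80, -0.18, -0.44 and 2.65 in NC and 4.44, 4.95, 5.56 and 6.20 in G20. It rose by 4.98 (adjusted p = 0.00878), with NC replicate 4 apart from the other 3. Hamp, the iron hormone hepcidin, rose by 3.62. Cyp4a12a, a male-typed fatty acid hydroxylase, fell by 4.83 and Mug1, a protease inhibitor, by 5.34. Apoa4 was above background on 4 of 4 liver NC arrays and 1 of 4 liver G20 arrays, so its measured effect of -4.66 rests on a G20 level mostly not above background. Sult3a1, a sulfotransferase, fell from between -2.0 and 2.26 in NC to a G20 level that did not clear background, a fall of at least 64.1-fold.

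**Figure D4:**
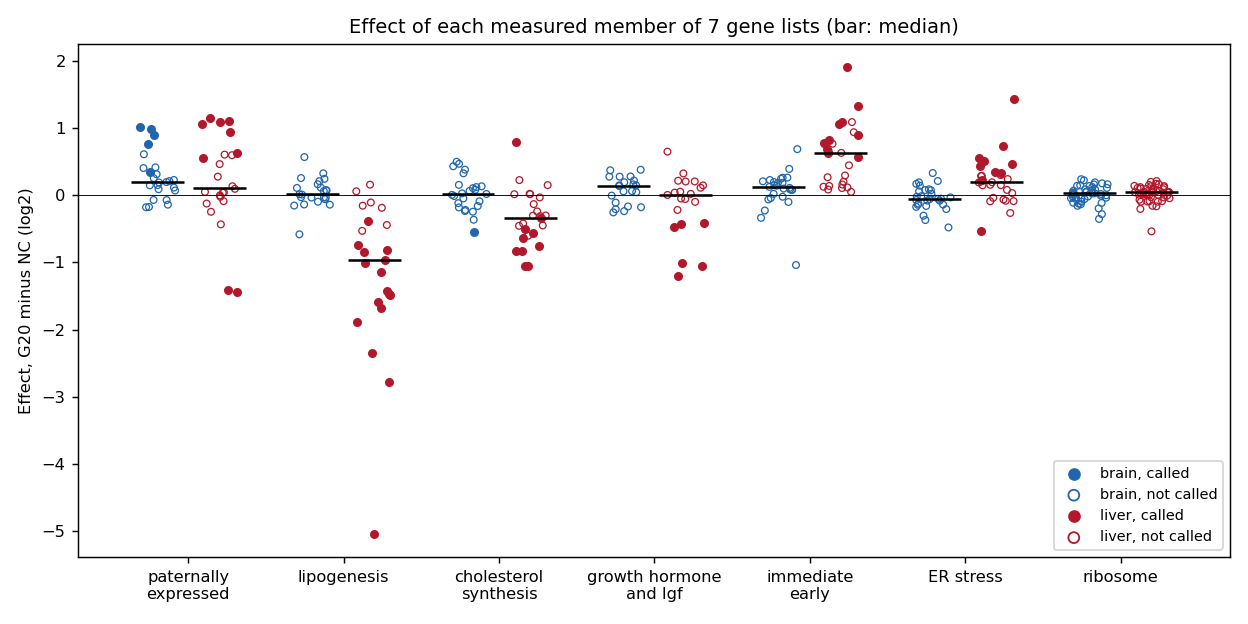
The G20 effect (log2) of each measured member of 7 gene lists in brain and liver, with filled points where the effect was called and a bar at the list's median. Paternally expressed genes reach above 0 in both tissues, most lipogenesis genes lie below 0 in liver (median -0.97) and around 0 in brain (0.01), and none of the 47 ribosomal genes was called.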

How the data were processed

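Per the labels, Trizol and RNAeasy were used for extraction, and RNA was amplified with Cy3 (One-Color Low RNA Input) and hybridised to Agilent mouse arrays, 1 colour each. Per the file headers, the authors' scanner files come from Agilent Feature Extraction 9.5.3.1, with spatial and multiplicative detrending, and hold a processed signal intensity per spot and flags of 0 or 1 (other). The deposited series matrix holds linear signal values whose scale and centring are not given in the sources used here (column medians 223.6 to 392.8 on the 16 arrays); it was used as an alternative. Control spots, and spots given as outliers, were left out.

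Intensities were taken to log2 and reduced by each array's 75th percentile. Spots of a probe were averaged. Of 41174 probes, 23374 were named through RefSeq accessions and the rest are called by the file's own name. A gene was represented by 1 probe, chosen by its brightness over all arrays, and other probes were compared with it. Among genes examined by name, 50 called effects had another measured probe, and for 39 every other probe moved in the same direction. Limma 3.58.1 in R 4.3.3 fitted 4 group means over 16 arrays, with Benjamini-Hochberg adjustment over all genes, after a test on simulated data. Alternatives were other background corrections, scalings, filters, probe rules, arrays in the fit, weights, blocks, thresholds and leaving out each array. Some items are not reported here. Genes were otherwise named by rule: in each class the 8 highest and 8 lowest effects (5 for opposite and unequal, and for each direction in 1 tissue only), classed members of the gene lists, and all imprinted and lipogenesis genes. The picks by size within a class were made among genes with a value on all 16 arrays. Their G20 and NC arrays also had to lie apart in each tissue where the class has a called effect. For these genes the lack of overlap was set by the choice and is not a result. Other list members, and the probes of host genes, were named after their values were seen. The members, lists and classes were chosen with earlier results of these data known.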

Additional observations from a re-analysis of the deposited data

Results flagged for a closer look

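Within groups of 4 arrays, 20 of 364 groups (91 genes in 4 groups each) held 1 array that stood apart from the other 3 in log2 level; chance alone sets about 1 in 20 groups apart. In brain NC the array apart read -3.51 for Serpina1d, -5.28 for Dusp16, -5.95 for Mbl2 and 5.79 for Aldoa. In brain G20 the array apart read 1.74 for Shfl, -4.41 for Mmp23, -1.36 for H13, -1.48 for Lama3, -0.61 for Insig1, -5.64 for Itih4 and 0.97 for Cdkn1a. In liver NC the array apart read 2.38 for Fam160b1, -0.96 for Cd300lg and 1.01 for Cdkn1a. In liver G20 the array apart read -0.35 for Itgb3bp, -4.08 for Slc6a16, 3.29 for Fam160b1, -1.31 for Gcnt1, -2.11 for Snord33 and -1.66 for Snurf. The Dusp16 value is the one brain NC array far below the other 3, and the Snurf value is the one liver G20 array at the level of NC.

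The brain effect minus the liver effect (log2) passed the test of the difference (limma, Benjamini-Hochberg adjusted p under 0.05 over all genes) for 74 of the genes examined by name. Of brain-limited genes the effect was higher in brain for Serpina1d 1.98, Cpb2 1.77, Agmat 1.41, Creb3l3 1.37, Shfl 0.74, Itgb3bp 0.51 and Inpp5f 0.47. Of brain-limited genes the effect was lower in brain for Mcpt4 -2.79, Xlr4b -1.9, Slc6a16 -1.28, Rgs10 -1.27, Uevld -1.22, Blcap -1.16, Mmp23 -1.02 and Slc16a8 -0.80. Of liver-limited genes the effect was higher in brain for Thrsp 4.46, Ddo 3.1, Rgs5 2.69, Sult5a1 2.56, Acacb 2.56, Ablim3 2.44, Cyp2a5 2.35, Cyp2a4 2.26, Fhad1 2.23, Elovl5 1.74, Me1 1.74, Snurf 1.59, Thy1 1.53, Sc5d 1.52, Fasn 1.43, Igf1 1.26, Phlda3 1.23, Igfbp5 1.23, Mgp 1.1, Elovl6 1.09, Cdkn1a 0.97, Socs2 0.94, Tm7sf2 0.94, Ugt8a 0.92, Tal1 0.88, Hsd17b7 0.86, Insig1 0.83, Aldoa 0.77, Emcn 0.69, Robo4 0.68, Igfbp7 0.63, Ghr 0.60, Kcnq1 0.45, Hk1 0.42 and Smchd1 0.35. Of liver-limited genes the effect was lower in brain for A2ml1 -3.16, Tnnc1 -2.49, Ntsr1 -2.14, Slc7a10 -1.76, Akr1c19 -1.71, Itga11 -1.61, Derl3 -1.58, Greb1 -1.49, Amy2a5 -1.46, Cry2 -0.81, Grin2b -0.60, Gstp1 -0.58, Itih4 -0.51 and Tinf2 -0.48. Of genes that moved in opposite directions the effect was higher in brain for Mbl2 5.3, Lama3 1.7 and Cd300lg 1.35. Of genes that moved in opposite directions the effect was lower in brain for Acat2 -1.34 and Wnt6 -1.32. Of genes that moved the same way by unequal amounts the effect was higher in brain for Htatip2 0.57. Of genes that moved the same way by unequal amounts the effect was lower in brain for Gm3696 -1.0, Pik3ap1 -0.87, Plekhm2 -0.67 and Efcab2 -0.36. Some classes rest on 1 probe of several. At another probe the brain effect was 1.35 for Wnt6 and 0.00084 for Uevld, against -0.75 and -1.15 at the probe used. At another probe the liver effect was 0.15 for Kcnq1 and 0.35 for Smchd1, against -0.46 and -0.22.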

How the results depend on the processing

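The counts are given in the order difference between tissues, brain, liver, mean effect, shared, brain-limited, liver-limited, opposite, unequal, brain only and liver only. They were 589, 189, 2071, 1548, 58, 39, 474, 8, 12, 48 and 240. Under normexp background correction they were 7493, 17, 9122, 4377, 7, 7, 6925, 2, 1, 4 and 1317. There the median liver effect ran from -1.21 in the dimmest 3007 genes to 0.52 in the brightest 3007, against 0.11 and 0.00057 in the reported setting. At an adjusted p under 0.01 they were 121, 53, 801, 500, 20, 10, 106, 1, 0, 17 and 69, and at 2-fold or more 181, 41, 245, 66, 8, 17, 100, 1, 1, 24 and 113. Normexp with quantile normalization, chosen after seeing the data, gave 1008 for the difference, 527 for brain, 102 shared, 120 brain-limited and 21 opposite. Array weights gave 386 in brain and 13 opposite, no filter 122 in brain, 33 shared and 5 unequal, and all 24 arrays 6 unequal. The share of differences that were higher in brain, 50.9%, was 63.6% with median scaling, 67.8% without the filter and 60.1% with normexp. Other counts stayed within 1.5-fold under these and the other settings that were run (quantile normalization, mean of probes, the authors' deposited matrix, probes above background on all 16 arrays).

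With array numbers as a replicate block the difference was called for 894 genes (random effect, consensus correlation 0.112) or 445 (fixed block); brain gave 190 and liver 2092. Same-number correlations of deviations ran from 0.028 to 0.292, so the pairing rests on the labels' numbers.

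Leaving out 1 array gave 362 to 787 for the difference, 82 to 284 in brain, 1415 to 2249 in liver, 1084 to 1719 for the mean effect, 30 to 71 shared, 19 to 61 brain-limited, 289 to 610 liver-limited, 3 to 12 opposite, 4 to 12 unequal, 22 to 81 brain only and 128 to 239 liver only. By over 1.5-fold, the difference count moved without brain NC replicate 2 (365), 3 (388) or 4 (362) or liver NC replicate 1 (386). The brain count moved without brain NC replicate 2 (82), brain G20 replicate 1 (106), 2 (91) or 4 (119), or liver G20 replicate 1 (284). The shared count moved without brain NC replicate 2 (30) or brain G20 replicate 1 (38), and the liver-limited count without brain NC replicate 2 (314), 3 (315) or 4 (289). The brain-limited count moved without brain NC replicate 2 (19), brain G20 replicate 2 (19) or 3 (61), liver NC replicate 1 (23) or 2 (24), or liver G20 replicate 1 (59) or 2 (25). The brain-only count moved without brain NC replicate 1 (31) or 3 (81) or brain G20 replicate 1 (25), 2 (29) or 4 (22), and the liver-only count without liver NC replicate 1 (148) or 2 (132) or liver G20 replicate 2 (128) or 4 (149). The opposite count moved without brain NC replicate 2 (3), brain G20 replicate 1 or 2 (5) or liver G20 replicate 3 (5), and the unequal count without any brain NC array, brain G20 replicate 1, 2 or 4, liver NC replicate 2 or 4 or liver G20 replicate 4 (4 to 7).

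Of 230 effects examined by name, 84 kept direction and call in every setting, 142 in every setting other than normexp and 168 without any 1 array. Under normexp, reversed differences were Mcpt4 1.06, Slc6a16 0.97, Mmp23 0.62, Slc16a8 1.66, Slc7a10 0.42, Ntsr1 0.83, Greb1 1.21, Wnt6 1.15, Gm3696 1.37, Plekhm2 0.56, Htatip2 -0.020, Pik3ap1 0.92, Efcab2 0.69, Derl3 1.57, Hk1 -0.23, Smchd1 -0.22 and Grin2b 1.29. Reversed liver effects were Slc7a10 -0.25, Ntsr1 -1.27, Greb1 -0.54, Gm5458 -1.35, Cldn34c1 -0.62, Wnt6 -1.37, Gm3696 -0.63, Efcab2 -0.086, Derl3 -1.03, Tm7sf2 0.053, Hk1 0.19, Aldoa 0.12, Smchd1 0.25, Grin2b -1.43, Peg12 -0.055, Nnat -0.22, Agpat2 0.058, Dsg1c -0.41 and Rdh16 -0.31. Reversed brain effects were Mmp23 0.036, Slc16a8 0.36, Dapk2 0.078, Asah2 0.49, Pik3ap1 0.27, Olfr1065 0.34, Pnlip 0.24 and Myh1 0.026. At single probes normexp reversed the difference at the second Blcap probe (0.54) and the liver effects at the first H13 (-0.24) and first Blcap (-1.28) probes. Without the filter Grin2b gave 0.065 for the difference and -0.22 in liver, and under normexp with quantile normalization the difference was Gm3696 0.24 and Htatip2 -0.046. The cause of these reversals was not tested. In simulated data with a shift of 1 on the log2 scale in 1 tissue, 76.5% of brain-limited and 52.9% of liver-limited genes were recovered.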

Other observations

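Over all 15033 genes, 8.21% rose and 5.57% fell in liver and 1.26% were called in brain. In brain 2412 of them had an unadjusted p under 0.05 (limma). A count of 0 called in brain in a short list is therefore near the share over all genes. Some of the immediate early genes, which cells switch on within minutes of a stimulus, rose in liver. Of 26 measured in both tissues, 10 rose and 0 fell in liver and 0 were called in brain (limma; 3 at an unadjusted p under 0.05), with list medians of 0.63 in liver and 0.12 in brain against 0.02 and 0.02 over all genes. Atf3, a stress transcription factor, rose by 1.90, Ccn1, a matrix signalling protein, by 1.33, Egr1, a zinc finger factor, by 1.08 and Nr4a1, an orphan nuclear receptor, by 1.06. The count in liver was 1 without liver G20 replicate 4, 3 without liver NC replicate 1, 5 without liver NC replicate 4 and 6 without liver G20 replicate 2, and the difference between tissues was called for 0 members (5 unadjusted). After normexp 16 rose and 5 fell in liver, and the difference was called with brain higher for 4 members and with liver higher for 9. Of 16 clock genes, 7 rose and 2 fell in liver and 0 were called in brain (4 unadjusted). Nr1d1, a repressor of the clock, rose by 1.93 and Per3 by 1.70, and Cry1 fell by 0.67 and Arntl by 0.36. Per3 gave 1.38 in brain, which was not called, so the liver calls of this list are not shown to be limited to liver; 1 difference, that of the repressor gene Cry2 (-0.81), was called. In the list of endoplasmic reticulum stress, with 28 genes, 9 rose in liver and 1 fell, 0 were called in brain (7 unadjusted), and the difference was called for Derl3. The chaperone genes Pdia4 and Pdia6 rose by 0.55 and 0.50. After normexp 21 members of the last list rose in liver. None of 47 ribosomal protein genes or 54 genes of oxidative phosphorylation was called in either tissue or in the difference (limma; at an unadjusted p under 0.05, 5 ribosomal genes in brain and 4 in liver, and 4 and 3 of the others), and of 35 cell cycle genes 1 fell in liver.

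Imprinted genes that were not shared varied between single arrays. Snurf, of the Snrpn domain, read -1.61, -1.42, -1.42 and -1.37 in liver NC and -1.66, -3.37, -3.42 and -3.13 in liver G20, so that 3 of 4 G20 arrays lay apart and replicate 1 lay with NC. In brain it read 3.46, 3.41, 3.46 and 3.43 in NC and 4.21, 3.41, 3.45 and 3.28 in G20, with replicate 1 the high one. The liver effect was -1.44 (limma, adjusted p = 0.0061), and the difference of 1.59 (adjusted p = 0.0496) was called in 1 of the 16 fits that left out an array, the one without liver G20 replicate 1. Cdkn1c, a growth-restraining cell cycle inhibitor read from the maternal copy, read 4.39, 4.36, 4.43 and 6.18 in liver NC and 6.61, 6.15, 5.91 and 5.94 in liver G20. Dlk1, a paternally expressed growth regulator, read 5.01, 5.20, 5.38 and 6.36 in liver NC and 6.56, 6.50, 6.52 and 6.78 in liver G20. Liver NC replicate 4 lay with or near the G20 arrays for both genes. Its summed muscle marker level, 19.7, was the highest of the liver NC arrays, and its summed level of gut and pancreas markers, 17.6, the lowest; their part in these values was not tested. Neither gene's difference was called (adjusted p = 0.118 and 0.0776).

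By position on mm8, examined after the values were seen, 24 of the 70 shared or unequal genes had another of the set within 1000000 bases, against 2 of 39 brain-limited and 217 of 470 liver-limited genes. The sets differ in size and the gap was not tested. A stretch of chromosome 14 from 3000000 to 6000000 held 5 tested genes, of which 4 were shared or unequal and rose in both tissues; they belong to a family of near-identical genes whose probes may share signal.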
